A study of Mus musculus with 10 samples.

Results

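Kinesins are the motor proteins that walk along microtubules, and 37 of the 48476 genes of the series carried a kinesin symbol of the form Kif with a number and at most 1 letter from a to c. The rule matches the symbol alone and uses no measured value, although the kinesins were taken up with earlier results of these data known. They were set in 3 classes by known function, with 11 mitotic kinesins, 13 transport kinesins and 13 other kinesins. The last class took all remaining members, among them Kif2a, which also acts at spindle poles. The RNA came from mouse embryonic fibroblasts (MEFs) of E13.5 embryos of the strain CBA/CaJ X C57BL/6J, and the methods give them an Oct4-GFP reporter. All cells received Oct4, Klf4 and Sox2 (OKS) by retrovirus packaged in PlatE cells and were then kept in iCD1 medium. The control arm also received DsRed, a red fluorescent protein, and the other arm received FoxO6, a forkhead transcription factor, and each arm gave 1 library at each of days 0, 1, 3, 5 and 7. A difference read on 1 day therefore has no replicate behind it. The libraries of an arm could all stem from 1 infected culture, so the p-values below describe these 10 libraries and not independent infections. Retroviral factors are not tied to a cell type, and the sources used here state no sort of infected cells before the RNA was taken.

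A kinesin couples ATP hydrolysis to steps along a microtubule. Transport kinesins of the kinesin-1, kinesin-2 and kinesin-3 families carry vesicles, mitochondria and ciliary components, mostly towards the plus end, and several of them are best known from neurons. Mitotic kinesins build and cut back the spindle, move chromosomes and organise the midzone where the cell divides, and their transcripts accumulate in G2 and M phase and fall again in G1. Dividing fibroblasts use both groups, and the comparison asks how each group behaved when FoxO6 was added to the reprogramming factors.

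Library depth ran from 1208379 to 2225750 expected counts (median 1601151), and between 2480 and 5213 of these fell on kinesin genes. The FoxO6 library was the deeper of the pair on days 0, 1, 3 and 5 and the shallower on day 7. Foxo6 itself had at most 4 reads in any OKS + DsRed library and between 1743 and 3375 in the OKS + FoxO6 libraries. The 7 fibroblast markers summed to between 2260 and 7439 TPM in OKS + DsRed and between 2462 and 6256 TPM in OKS + FoxO6, and of the 7 tested only Col3a1 was called between the arms, lower by a log2 of -0.64. The 6 macrophage markers summed to 11.0 to 55.5 TPM in the control arm and 16.2 to 26.5 TPM with FoxO6, with 0 of 1 tested called. The 5 endothelial markers summed to 18.7 to 53.0 and 30.4 to 104 TPM, most of it Tek at 16.8 to 104 TPM, which was higher with FoxO6 by 0.95. The 6 neuron markers summed to 81.2 to 210.0 TPM in OKS + DsRed and 33.4 to 91.4 TPM in OKS + FoxO6, with Tubb3, at 1.85 to 143 TPM over the libraries, lower by a log2 of -2.59 and Syt1 also called of 3 tested. No marker was at 0 in all libraries, and the part of the neuron markers in the results on neuronal kinesins was not tested. Since the RNA is from bulk cultures, fewer dividing cells and less of a transcript in each cell cannot be told apart.

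Of the 37 members, 32 had a mean TPM (transcripts per 1000000 transcripts, a level corrected for length) of 1 or more over the 10 libraries. Among them were all 11 mitotic kinesins, 12 transport kinesins and 9 other kinesins. Kif12 and Kif2b had no read in any library. Kif17, a kinesin-2 motor of cilia and dendrites, had 1 read in each of 2 libraries, and Kif26a and Kif27 had mean TPM of 0.57 and 0.45. The most abundant kinesin transcript was Kif1c, a kinesin-3 that carries integrins and other cargo in fibroblasts, with a mean TPM of 175. It was followed by Kif5b, the kinesin-1 heavy chain of most tissues, at 104 and by Kif1a, a motor of synaptic vesicle precursors, at 99.6. The most abundant mitotic kinesins were Kif23, the motor of the centralspindlin complex, with a mean TPM of 70.3, and Kif20a, a motor of the late spindle midzone, with 61.7. The lower bound on counts left 28 members for the fit, namely all 11 mitotic kinesins, 11 transport kinesins without Kif5a and Kif17, and 6 other kinesins.

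Mitotic kinesins were lower with FoxO6. Over the 5 days, 7 of the 11 fell in a fit of the counts with day as a factor (edgeR quasi-likelihood test, Benjamini-Hochberg adjusted p under 0.05 over 10977 genes), and none rose. Of all genes tested, 7.13% were called lower and 6.93% were called higher. All 11 fitted changes were negative, with a median log2 fold change of -0.58 against -0.02 for all genes tested. The fold changes are FoxO6 over DsRed, and each has a standard error derived from its F statistic. The call of single members was sensitive to the set of days. Leaving out 1 day in turn left between 1 and 4 of the 11 called, namely 2 without day 0 or day 3, 4 without day 1 or day 7 and 1 without day 5. An offset for the transcript length that RSEM estimated in each library left 2, DESeq2 left 4, and without a day term there were 0. Kif20a alone of the 11 was called in 10 of the 11 alternative fits, and all 11 alternatives gave each of the 11 mitotic kinesins a negative fold change.

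**Figure D1:**
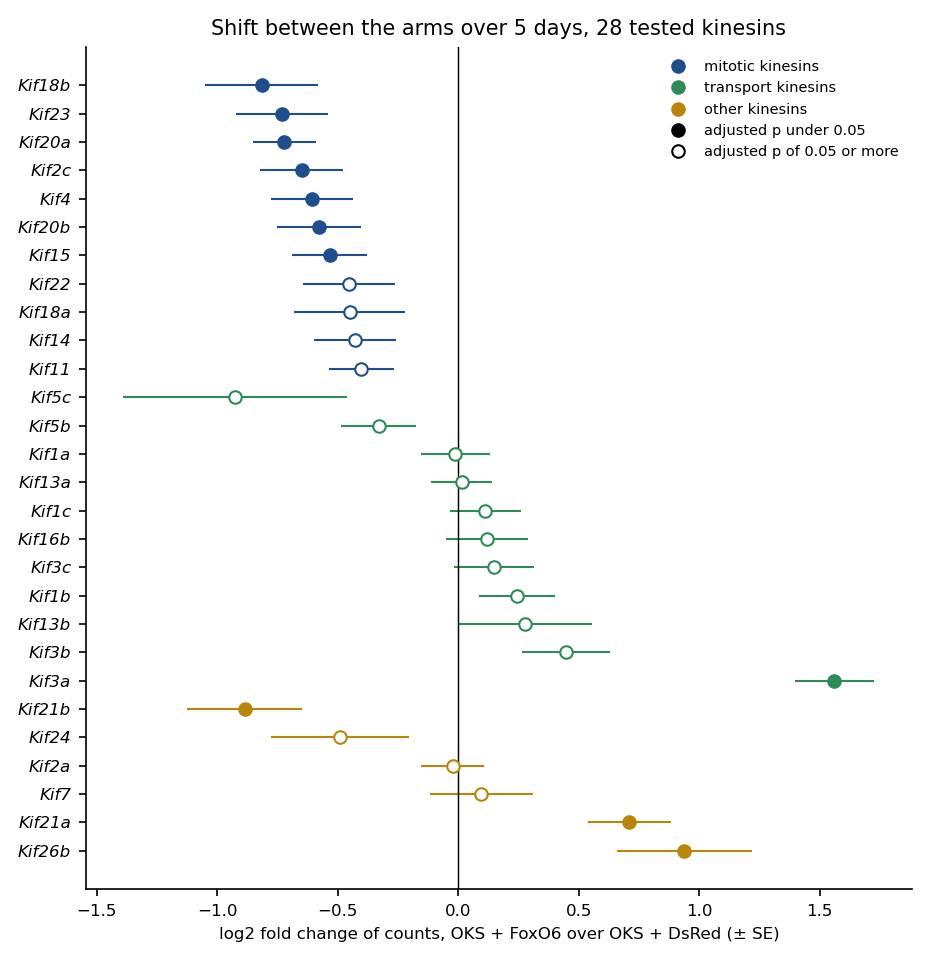
Log2 fold change of counts between OKS + FoxO6 and OKS + DsRed over the 5 days for the 28 tested kinesin genes, with 1 standard error to each side and filled points for an adjusted p under 0.05 (edgeR). All 11 mitotic kinesins lie below 0, and Kif3a stands at 1.56 among transport kinesins.

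Kif20a (18:34624613-34633277, plus strand, coordinates of GRCm38 from GENCODE here and below) was the mitotic kinesin with the lowest adjusted p. Its TPM at days 0, 1, 3, 5 and 7 was 58.9, 97.3, 59.2, 97.3 and 71.1 in OKS + DsRed. In OKS + FoxO6 it was 43.6, 60.3, 41.8, 45.7 and 41.5. The FoxO6 value was the lower on each of the 5 days, and only the FoxO6 value of day 1 reached above the lowest control values. The fitted log2 fold change was -0.72 (SE 0.13, adjusted p = 0.00466, edgeR), and it was -0.74 with an adjusted p of 0.0644 without a day term. The last exons of Kif20a share 1271 bases with Cdc23 on the opposite strand, a gene with 66.8 to 134 reads per library, and the sources used here do not say whether the counting used strand.

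Kif23 (9:61915905-61946774, minus strand), which with Racgap1 forms centralspindlin and bundles the midzone, had TPM of 106, 59.3, 75.2, 79.6 and 91.1 in the control arm. With FoxO6 it had 31.6, 91.5, 71.1, 50.9 and 46.0. It was lower on 4 of the 5 days and higher on day 1, and its log2 fold change was -0.73 (SE 0.19, adjusted p = 0.0294, edgeR). The effective length that RSEM gave to Kif23 ran from 1197 to 2494 bases among the libraries, and with the length offset the value was -0.58 with an adjusted p of 0.250.

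Kif18b (11:102905529-102925124, minus strand), a kinesin-8 that trims the plus ends of astral microtubules, had the largest fitted fall of the class, a log2 fold change of -0.82 (SE 0.23, adjusted p = 0.0397, edgeR). Its TPM was 31.8, 33.6, 21.8, 32.6 and 30.9 in OKS + DsRed, a flat course apart from day 3. With FoxO6 it was 13.3, 32.0, 20.1, 16.0 and 9.92. The arms were close on days 1 and 3 and apart on days 0, 5 and 7. At day 7 the ratio of FoxO6 to DsRed was widest, with 29 reads against 98.

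Kif4 (X:100625737-100727214, plus strand), a chromokinesin that sets the length of the midzone, had TPM of 34.5, 26.9, 32.4, 43.3 and 35.1 in OKS + DsRed and 14.1, 33.9, 15.2, 18.3 and 17.5 in OKS + FoxO6. Apart from day 1, each FoxO6 TPM was under every control TPM. Its effective length varied 2.09-fold among the libraries, and in CPM, counts scaled to library size with no length correction, the FoxO6 library of day 7 (50.1) lay above the control of day 0 (46.5). Its log2 fold change was -0.61 (SE 0.17, adjusted p = 0.0373, edgeR). Its exons share 832 bases with Pdzd11 on the opposite strand, which had 32.3 to 81.5 reads per library.

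Kif2c (4:117159639-117182639, minus strand), the microtubule depolymerase of the centromere also known as MCAK, had TPM of 46.2, 71.3, 62.8, 60.1 and 32.5 in the control arm and 20.2, 59.2, 34.0, 41.2 and 29.7 with FoxO6. It was lower with FoxO6 on all 5 days, by least on day 7, and its log2 fold change was -0.65 (SE 0.17, adjusted p = 0.0302, edgeR). Kif15 (9:122951046-123018733, plus strand), which can stand in for Kif11 in keeping spindle poles apart, had TPM of 29.5, 43.5, 28.7, 46.5 and 29.7 against 17.4, 40.6, 31.3, 23.3 and 21.0, with the groups overlapping at days 1 and 3. Its log2 fold change was -0.53 (SE 0.16, adjusted p = 0.0427, edgeR). That call was kept in 2 of the 11 alternative fits, and the effective length of Kif15 varied 1.8-fold among the libraries. Kif20b (19:34922361-34975745, plus strand), a kinesin-6 of the midzone and midbody, had TPM of 11.3, 19.5, 21.9, 21.0 and 20.7 against 13.2, 13.9, 13.8, 13.6 and 9.13. Only at day 0 was the FoxO6 value the higher, and the log2 fold change was -0.58 (SE 0.17) with an adjusted p of 0.0497 (edgeR), just under the threshold.

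The other 4 mitotic kinesins had negative fold changes that did not pass the threshold. Kif11, the tetrameric motor that pushes spindle poles apart, had a log2 fold change of -0.40 (SE 0.13, adjusted p = 0.0689, edgeR). Kif14, a midbody motor that recruits citron kinase, had -0.43 (adjusted p = 0.128) and was the lower with FoxO6 on all 5 days. Kif22, a chromokinesin that pushes chromosome arms outwards, had -0.45 (adjusted p = 0.149), and at day 7 its ratio of counts per library size, FoxO6 to DsRed, was 0.986 (95% exact interval 0.749 to 1.295). Kif18a, which damps chromosome movements at the metaphase plate, had -0.45 (adjusted p = 0.236) from 19 to 44 reads per library, the lowest counts of the class.

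**Figure D2:**
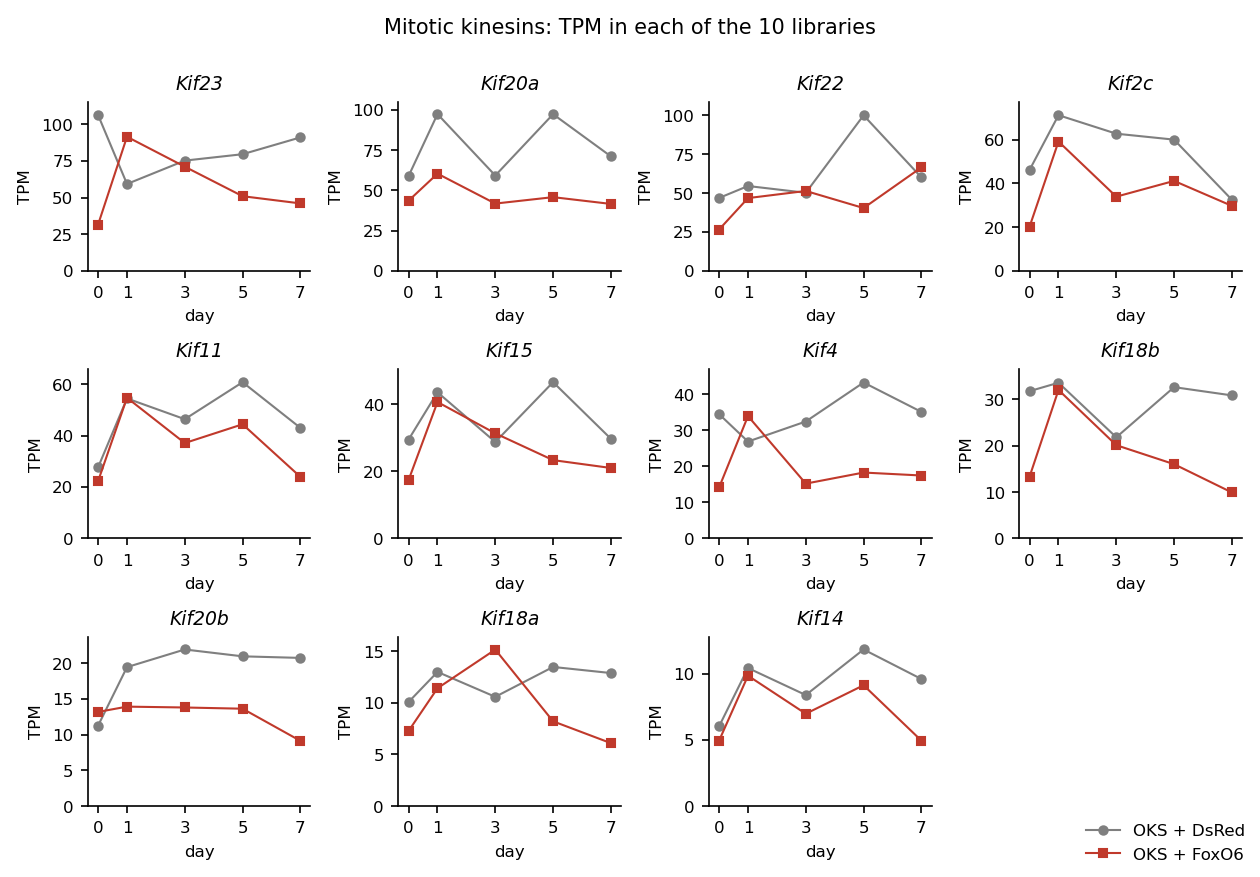
TPM of the 11 mitotic kinesins against day (0, 1, 3, 5 and 7), with 1 point per library, grey circles for OKS + DsRed and red squares for OKS + FoxO6. The arms lie close on day 1 for most genes, and at day 5 the FoxO6 library is the lower for all 11.

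The size of the difference varied by day. On the log2(TPM + 1) scale the median difference over the 11 genes, FoxO6 minus DsRed, was -0.73, -0.10, -0.24, -0.65 and -0.83 on days 0, 1, 3, 5 and 7. The median over all 14837 genes whose mean TPM reached 1 was 0.09, 0.00, 0.00, 0.00 and -0.14 on the same days. The number of mitotic kinesins lower with FoxO6 was 10, 8, 8, 11 and 10 of 11. At day 1 the arms were therefore nearly level, and on the other days the class lay under the median of all genes. Past 2-fold, 4, 0, 1, 3 and 2 of the 11 were lower on these days, where the share of all genes past 2-fold lower was 9.22%, 13.1%, 15.2%, 14.9% and 21.0%. None was past 2-fold higher on any day, where the share of all genes was 14.3%, 11.0%, 11.2%, 13.6% and 10.6%. Kif20a, Kif2c, Kif18b and Kif14 were lower on each of the 5 days, as were 8.58% of all genes whose mean TPM reached 1.

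The day of the highest value was not the same in both arms, as a description of single libraries. In OKS + DsRed, 6 of the 11 had their highest TPM at day 5 and 3 at day 1, and 6 had their lowest at day 0. In OKS + FoxO6, 9 of the 11 peaked at day 1, among them Kif11 with 54.7 TPM against 22.3 at day 0. The lowest value was at day 0 for 7, with Kif14 as low at day 7, and at day 7 for 4. The slope of the arm difference with day was tested for each gene in a separate fit with 1 term added. None of the 11 passed, where 1.98% of all genes tested did, and 1 had an unadjusted p under 0.05 in edgeR, Kif20b with a log2 slope of -0.13 per day (adjusted p = 0.250). With DESeq2 none passed either. The change from day 0 to day 7 over both arms also passed for none of the 11 (3 had an unadjusted p under 0.05 in edgeR, and none passed with DESeq2), where 10.1% of all genes tested were called lower at day 7 and 11.2% higher. The values of Kif4 and Kif22 were the nearest, 0.78 and 0.77 (adjusted p = 0.0662 and 0.0977, edgeR), and without day 1 Kif4 passed with 0.77 (adjusted p = 0.0479).

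Among partners of the mitotic kinesins that do not carry a Kif number, 11 of 24 tested fell with FoxO6 and none rose (7.13% and 6.93% of all genes tested), with a median log2 fold change of -0.53. The list was chosen with earlier results of these data known. All 24 fitted values were negative, and the number called was 8 with DESeq2 or the length offset, 7 without day 0, 5 without day 3, 2 without day 5 and 0 without a day term. Racgap1 and Ect2 were among those lost without day 3 and without day 5. Prc1, the midzone crosslinker that recruits Kif4, fell by 0.78 on the log2 scale (SE 0.16, adjusted p = 0.00793, edgeR). Its TPM was 98.7, 107, 102, 121 and 97.2 in the control arm and 46.6, 93.1, 64.2, 66.8 and 47.0 with FoxO6, with no overlap between the groups. Racgap1, the partner of Kif23, had TPM of 94.9, 100.4, 107, 136 and 97.2 against 57.5, 102, 57.8, 64.5 and 61.4, with only day 1 overlapping. It fell by 0.71 (SE 0.16, adjusted p = 0.0163). Bub1b, a checkpoint kinase of the kinetochore, fell by 0.95 (adjusted p = 0.00147), and Ect2, the exchange factor that centralspindlin activates, by 0.75 (adjusted p = 0.0105). Plk1, Top2a, Ccnb1, Cdca8, Anln, Aurkb and Cenpe, the last a kinesin of the kinetochore, were also called, with values between -0.67 and -0.53. Kifc1, the minus-end kinesin that gathers spindle poles, had -0.33 (adjusted p = 0.241) and Tpx2, which anchors Kif11 and Kif15 on the spindle, had -0.45 (adjusted p = 0.0687).

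Of 11 transport kinesins tested, 1 was called higher with FoxO6 and none lower, where 6.93% of all genes tested were called higher and 7.13% lower, so the share called higher was near that of all genes. Over the 11, the fitted values were positive for 8 and negative for 3, with a median log2 fold change of 0.12. Past 2-fold on single days, 4 of the 12 with a TPM of at least 1 in either library were higher at day 0, where 14.3% of all genes were, and 1 on each of the other days (10.6% to 13.6% of all genes). At day 1, 1 was lower and at day 7, 2 were (13.1% and 21.0% of all genes). At day 0, 11 of the 12 were higher with FoxO6 (median difference 0.56 in log2(TPM + 1)), where 8212 of all 14837 genes were (median 0.09). At day 7, 7 of the 12 were lower (median -0.27), a share near that of all genes (8456 of 14837, median -0.14). On days 1, 3 and 5 the median was -0.004, 0.002 and 0.067.

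**Figure D3:**
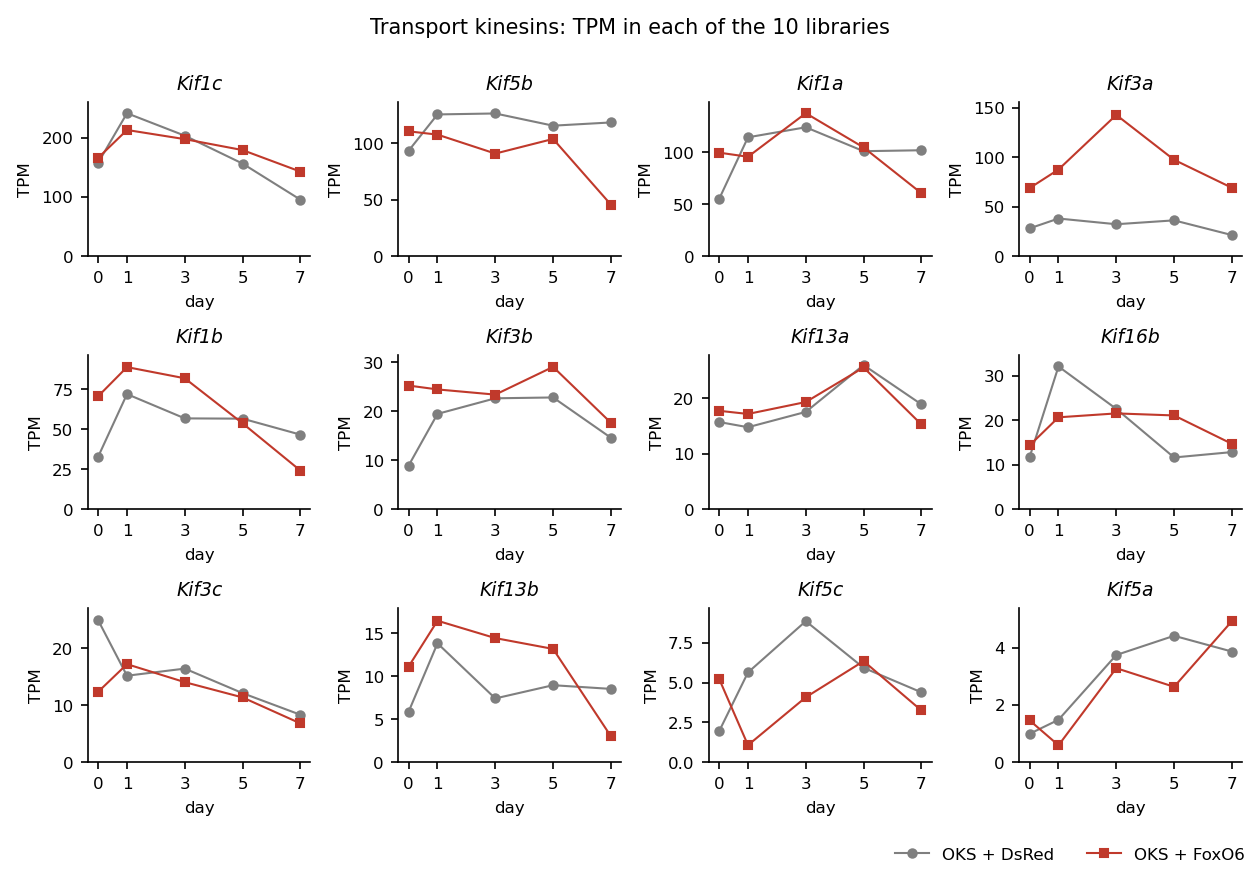
TPM of the 12 transport kinesins whose mean TPM reached 1 against day, with 1 point per library, grey circles for OKS + DsRed and red squares for OKS + FoxO6. Kif3a is separated on every day, and Kif5b, Kif1a, Kif1b and Kif13b fall under the control at day 7.

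Kif3a (11:53567379-53601967, plus strand) was the transport kinesin called. It is a motor subunit of heterotrimeric kinesin-2, which drives intraflagellar transport into the primary cilium. Its TPM was 28.1, 38.0, 32.3, 36.2 and 21.3 in OKS + DsRed and 68.8, 87.6, 143, 97.4 and 69.1 in OKS + FoxO6. Every FoxO6 library lay above every control library, and the highest control value was under the lowest FoxO6 value. The log2 fold change was 1.56 (SE 0.17, adjusted p = 0.000226, edgeR), a 2.95-fold higher level, and it passed in all 11 alternative fits with adjusted p up to 0.00669. The ratio of counts per library size was 2.39 at day 0 (95% exact binomial interval 1.71 to 3.41, counting error only), 2.36 and 4.60 on days 1 and 3 (3.50 to 6.13 for the latter), and 2.53 and 3.35 on days 5 and 7. The slope of the difference with day was 0.05 per day (adjusted p = 0.668).

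The partners of Kif3a in the same motor were not called. Kif3b, the second motor subunit (2:153291413-153333390, plus strand), had TPM of 8.89, 19.4, 22.6, 22.8 and 14.6 in the control arm and 25.2, 24.4, 23.4, 29.0 and 17.6 with FoxO6. It was the higher with FoxO6 on each of the 5 days, by 1.41 in log2(TPM + 1) at day 0 and by at most 0.34 later. Its log2 fold change of 0.45 (SE 0.18, adjusted p = 0.132, edgeR) did not pass. Kifap3, the non-motor subunit that links the pair to cargo, had TPM of 23.1, 29.8, 18.1, 15.3 and 14.6 against 28.3, 28.3, 24.6, 21.9 and 14.4, and a value of 0.20 (adjusted p = 0.429). Of all genes whose mean TPM reached 1, 9.86% were higher on all 5 days, and Kif3a and Kif3b were the transport kinesins among them. The ratio of Kif3a to Kif3b in TPM was 3.16, 1.96, 1.43, 1.59 and 1.46 in OKS + DsRed and 2.73, 3.58, 6.11, 3.35 and 3.92 in OKS + FoxO6, higher with FoxO6 on all days but day 0. Kif3a made up 45.3% to 52.4% of the summed TPM of Kif3a, Kif3b and Kif3c in the control libraries and 64.7% to 79.2% in the FoxO6 libraries.

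Kif3c (12:3365132-3406494, plus strand), the kinesin-2 subunit that pairs with Kif3a in neurons, was called for its change with time and not between the arms. Its TPM was 24.9, 15.2, 16.4, 12.1 and 8.33 in OKS + DsRed and 12.4, 17.2, 14.1, 11.4 and 6.81 in OKS + FoxO6. Over both arms its counts fell by 1.30 on the log2 scale from day 0 to day 7 (SE 0.27, adjusted p = 0.00556, edgeR), while the shift between the arms was 0.15 (adjusted p = 0.623). With the length offset the sign of that shift turned, to -0.32 (adjusted p = 0.434), and by TPM Kif3c was the lower with FoxO6 on 4 of the 5 days. At day 0 the effective length of Kif3c was 2532 bases in the DsRed library and 6330 in the FoxO6 library, and there the control had the higher TPM from 41 reads against 86. A pair of antisense genes share 2617 and 588 bases with its exons, and the first of them, 1110002L01Rik, had 7 to 18.3 reads per library.

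Among kinesin-1 genes, Kif5b held 84.8% to 98.5% of the summed TPM of the family in every library. Its TPM was 93.3, 125, 126, 115.5 and 118 in the control arm and 110.5, 108, 90.8, 104 and 45.6 with FoxO6. Its counts per library size with FoxO6 were 1.10, 0.840, 0.851 and 0.824 times the control on days 0, 1, 3 and 5, and 0.482 times the control at day 7 (95% exact interval 0.414 to 0.560). The shift over 5 days was -0.33 (SE 0.15, adjusted p = 0.193, edgeR) and the slope was -0.13 per day (adjusted p = 0.114). The neuronal forms were low, Kif5a with TPM of 0.59 to 4.92 and at most 21 reads, and Kif5c with 1.07 to 8.86 TPM and at most 29 reads. Kif5c had a log2 fold change of -0.92 (SE 0.46, adjusted p = 0.226), and without day 0 it was called at -1.53 (adjusted p = 0.0230). Its effective length varied 6.25-fold among the libraries, and with the length offset its value was -0.52 (adjusted p = 0.560). By TPM it was the higher with FoxO6 at day 0 (5.24 against 1.94) and day 5 (6.35 against 5.93).

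The kinesin-3 genes Kif1a, Kif1b and Kif1c summed to between 228 and 428 TPM and were the largest of these 3 families in every library. Kif1c had TPM of 158, 241, 203, 156 and 95.4 against 166, 213, 198, 179 and 143 and a log2 fold change of 0.11 (adjusted p = 0.683, edgeR). Kif1b, a motor of mitochondria and of synaptic vesicle precursors, had TPM of 32.8, 72.1, 56.9, 56.7 and 46.7 in the control arm. With FoxO6 it had 70.7, 89.0, 82.0, 53.8 and 24.2, above the control until day 3 and below it at day 7. Its shift was 0.24 (adjusted p = 0.359) and its slope was -0.14 per day, with the lowest adjusted p among kinesins for the slope, 0.0828. Without day 7 the shift of Kif1b was 0.42 and passed (adjusted p = 0.0319). Kif1a had TPM of 55.0, 115, 124, 101 and 102 against 99.8, 95.8, 138, 105 and 60.7 and a value of -0.01 (adjusted p = 0.971).

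The remaining transport kinesins had shifts no larger than their standard errors. Kif13a, a motor of recycling endosomes, had a log2 fold change of 0.01 (SE 0.13, adjusted p = 0.961, edgeR) with TPM between 14.8 and 26.0. Kif16b, a motor of early endosomes, had 0.12 (SE 0.17, adjusted p = 0.709) with TPM between 11.6 and 32.1. Kif13b, which carries the scaffold Dlg1, had 0.28 (SE 0.28, adjusted p = 0.581), with TPM of 5.87, 13.8, 7.42, 8.96 and 8.53 against 11.1, 16.5, 14.4, 13.2 and 3.02. Among 16 tested partners of transport kinesins, Trak2, an adaptor of kinesin-1 on mitochondria, rose by 0.47 (adjusted p = 0.0254). Mapk8ip1, a scaffold that binds kinesin light chains, fell by 0.92 (adjusted p = 0.0200), with TPM of 12.4 to 21.2 in the control arm and 5.06 to 12.7 with FoxO6. The higher call was lost with the length offset, without a day term and without day 0, 3 or 5, and the lower call without a day term and without day 1, 3 or 5. With 1 call in each direction of 16, the shares were near the 6.93% and 7.13% of all genes. The median of the 16 was 0.15, and Klc1, a light chain of kinesin-1, had 0.15 (adjusted p = 0.517).

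The balance of the classes was read from the summed TPM of their members. Mitotic kinesins summed to 409, 484, 418, 566 and 437 TPM in OKS + DsRed and to 214, 454, 338, 311 and 276 TPM in OKS + FoxO6. Transport kinesins summed to 437, 694, 642, 558 and 455 TPM in OKS + DsRed and to 603, 691, 751, 648 and 408 TPM in OKS + FoxO6. The FoxO6 sum of mitotic kinesins was 0.524, 0.939, 0.809, 0.549 and 0.633 times the control on the 5 days in order. For transport kinesins the same ratios were 1.38, 0.995, 1.17, 1.16 and 0.896, and without Kif3a they were 1.31, 0.919, 0.998, 1.06 and 0.781. The ratio of transport to mitotic kinesins was 1.07, 1.44, 1.54, 0.98 and 1.04 with DsRed and 2.81, 1.52, 2.22, 2.08 and 1.48 with FoxO6. By these sums it was the higher with FoxO6 on each of the 5 days, by least at day 1 and by most, 2.63-fold, at day 0, and no test was run on these sums. At day 1 the direction turned with mean log2(TPM + 1) in place of sums (a log2 difference of -0.03), and without Kif3a the FoxO6 ratio to the control was 0.919 for transport and 0.939 for mitotic kinesins.

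**Figure D4:**
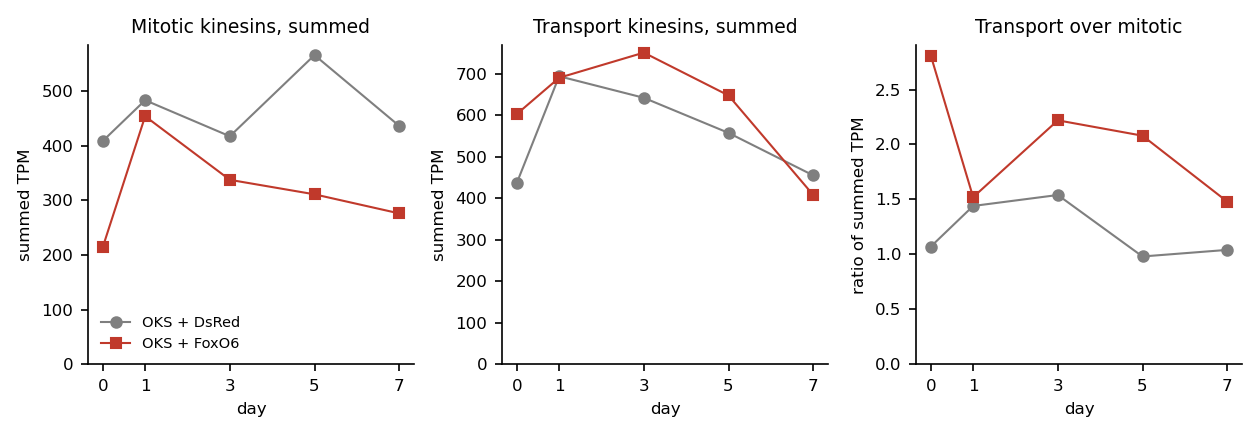
Summed TPM of the 11 mitotic kinesins, summed TPM of the 13 transport kinesins and the ratio of transport to mitotic sums against day, with 1 point per library, grey circles for OKS + DsRed and red squares for OKS + FoxO6. The mitotic sum is the lower with FoxO6 on all 5 days and nearly level at day 1, where the ratio is 1.52 against 1.44.

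In the third class, which holds all remaining kinesins, 3 of 6 tested members were called. Of these, 2 were higher and 1 lower, where 6.93% and 7.13% of all genes tested were. Kif26b (1:178529125-178939200, plus strand), an atypical kinesin without motor activity that acts in non-canonical Wnt signalling of mesenchymal cells, rose by 0.94 on the log2 scale (SE 0.28, adjusted p = 0.0465, edgeR). Its TPM was 1.92, 1.66, 1.66, 0.75 and 1.60 with DsRed, from 7 to 20 reads. With FoxO6 it was 6.34, 5.67, 3.24, 2.52 and 2.38, with no overlap in TPM. Its effective length varied 2.0-fold among the libraries, and in CPM the FoxO6 library of day 7 (10.4) lay below the control of day 0 (11.5). At day 7 the ratio of counts per library size was 0.954 (95% exact interval 0.462 to 1.94). Kif21a (15:90933276-91049948, minus strand), a motor that limits microtubule growth at the cell cortex, rose by 0.71 (SE 0.17, adjusted p = 0.0200), with TPM of 5.87, 10.7, 10.1, 8.67 and 6.73 against 10.5, 14.4, 20.1, 18.4 and 8.26. Its paralogue Kif21b (1:136131389-136177998, plus strand), which paces microtubule growth in neurons and lymphocytes, fell by 0.89 (SE 0.24, adjusted p = 0.0314), with TPM of 2.05, 6.71, 5.18, 10.6 and 3.75 against 1.80, 7.81, 3.04, 2.18 and 2.10. None of these 3 calls was kept by DESeq2, without a day term, without day 3 or without day 5. Kif21b, whose effective length varied 1.93-fold among the libraries, was also lost with the length offset and without day 1 or day 7, and Kif26b without day 0 or day 1.

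Kif2a (13:106958996-107022126, minus strand), a depolymerase of interphase cells and of spindle poles, had a shift between the arms of -0.02 (SE 0.13, adjusted p = 0.939, edgeR) and fell by 0.75 from day 0 to day 7 over both arms (SE 0.21, adjusted p = 0.0235), a call lost with DESeq2 (adjusted p = 0.0565) and with the length offset (adjusted p = 0.107). Its TPM was 49.4, 54.8, 41.6, 48.6 and 46.4 with DsRed and 68.9, 65.7, 52.4, 45.2 and 19.2 with FoxO6. At day 7 its effective length was 4840 bases in the FoxO6 library and 2877 in the control, and the ratio of counts per library size was 0.761 (95% exact interval 0.571 to 1.01). Its exons share 1229 bases with Dimt1 on the opposite strand, which had 20.8 to 55.0 reads. Kif24, which restrains the growth of primary cilia, had TPM of 9.41, 8.10, 10.5, 14.5 and 28.2 in the control arm and 5.85, 10.1, 8.22, 15.7 and 5.33 with FoxO6. At day 7 its counts per library size with FoxO6 were 0.298 times the control (95% exact interval 0.153 to 0.543, from 14 and 56 reads), while its shift did not pass (-0.49, adjusted p = 0.304). Kif7, the kinesin of Hedgehog signalling at the tip of the cilium, had a shift of 0.10 (SE 0.21, adjusted p = 0.823). Kif19a, which limits the length of motile cilia, was at 0 reads in the DsRed libraries of days 0, 1 and 3 and had 6 reads at day 5 and 26 at day 7, against at most 2 in any FoxO6 library. The day 7 ratio of FoxO6 to DsRed was 0.046 with an interval of 0.001 to 0.279. Kif6 and Kif9 had at most 3 and at most 7 reads in any library.

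The promoter windows of the mitotic kinesins shared a short motif that those of the transport kinesins mostly lacked. RefSeq windows of 300 bases (GRCm38.p6), from 250 before to 50 after each annotated start, were found for 31 of the 37 members, 10 of them mitotic and 10 of them transport kinesins. The letters TTTGAA on either strand, the core of the cell cycle homology region (CHR) through which the DREAM complex and B-MYB are known to act on G2/M genes, were in the windows of 9 of 10 mitotic kinesins and of 1 of 10 transport kinesins, Kif1a. They were also in 2 of 11 other kinesins, Kif27 and Kif26b, the latter called higher with FoxO6 and with the letters at -9. The same letters were in 14 of 21 spindle partners, in 1 of 13 transport partners and in 17.9% of all 32851 windows, or 20.2% of the 27025 genes with a window. Base composition differed between the classes, with a median GC content of 60.2% in mitotic and 68.2% in transport windows. Among all 21050 windows with a GC content from 43.7% to 65.0%, the range of the mitotic kinesins, 16.8% held the motif.

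Stretches from 120 bases before to 30 bases after the start, 5′ to 3′ on the strand of the gene, are shown for called mitotic kinesins with the motif near the start and for the kinesin-2 pair Kif3a and Kif3b for contrast. Capitals mark TTTGAA or its reverse complement TTCAAA, and CCAAT or its reverse complement ATTGG, the box bound by NF-Y. Sequences and coordinates are those of RefSeq on GRCm38.p6.
Kif23 (chr9:61946770-61946919, minus strand): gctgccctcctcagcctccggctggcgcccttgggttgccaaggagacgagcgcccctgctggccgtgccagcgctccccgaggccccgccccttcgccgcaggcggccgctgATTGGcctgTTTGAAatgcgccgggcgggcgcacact
Kif18b (chr11:102925095-102925244, minus strand): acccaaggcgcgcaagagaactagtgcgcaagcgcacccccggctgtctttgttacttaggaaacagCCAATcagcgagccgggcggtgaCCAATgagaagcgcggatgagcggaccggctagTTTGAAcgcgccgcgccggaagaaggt
Kif4 (chrX:100625945-100626094, plus strand): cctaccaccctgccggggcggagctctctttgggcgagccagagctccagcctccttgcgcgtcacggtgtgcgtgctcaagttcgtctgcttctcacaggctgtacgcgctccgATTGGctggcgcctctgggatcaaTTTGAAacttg
Kif15 (chr9:122950961-122951110, plus strand): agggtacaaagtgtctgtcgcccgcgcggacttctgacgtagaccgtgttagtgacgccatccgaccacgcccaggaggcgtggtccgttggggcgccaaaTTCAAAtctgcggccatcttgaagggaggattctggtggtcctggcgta
Kif20b (chr19:34922238-34922387, plus strand): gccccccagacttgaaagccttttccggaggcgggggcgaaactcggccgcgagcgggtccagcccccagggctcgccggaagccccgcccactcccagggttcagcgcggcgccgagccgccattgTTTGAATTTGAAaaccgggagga
Kif3a (chr11:53567249-53567398, plus strand): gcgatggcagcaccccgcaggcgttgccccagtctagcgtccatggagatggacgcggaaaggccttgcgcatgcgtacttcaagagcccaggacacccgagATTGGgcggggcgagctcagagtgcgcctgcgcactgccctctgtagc
Kif3b (chr2:153291296-153291445, plus strand): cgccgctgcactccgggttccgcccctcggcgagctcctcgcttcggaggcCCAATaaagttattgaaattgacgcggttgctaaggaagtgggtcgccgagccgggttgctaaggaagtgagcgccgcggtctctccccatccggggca

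In Kif23, Kif18b, Kif4 and Kif20b the first letter of the motif lay at an offset of 2, 3, 19 and 7 bases from the start, with a second copy at 13 in Kif20b. In Kif15, Kif22 and Kif11 it lay at -19, -17 and -19, with a second copy at -234 in Kif15 and at -215 in Kif22. In Kif2c and Kif14 it was farther off, at -103 and -228, and Kif18a had none in the window. Kif3a and Kif3b had the NF-Y box and no TTTGAA. The NF-Y box was in 6 of 10 mitotic and 3 of 10 transport kinesins and in 41.1% of all genes with a window. A set of E2F letters (TTCGCGC or TTGGCGC on either strand) was in 2 of 10 mitotic kinesins, 1 of 10 transport kinesins and 4.47% of all genes. The forkhead letters TGTTTAC were in no window of the 31 members and in 4.05% of all genes, which says only that these letters are not in the windows. The motifs are matches of letters, and no binding was measured.

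**Figure D5:**
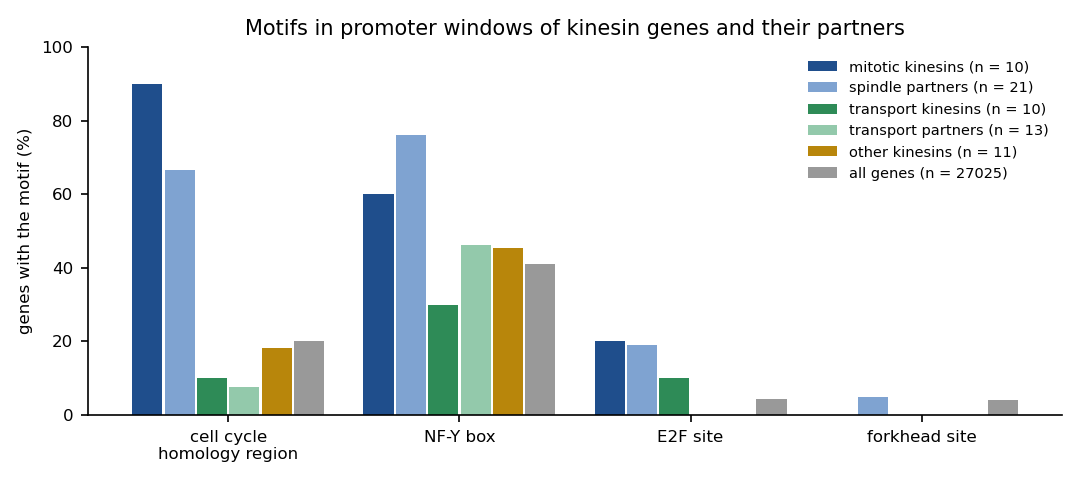
Share of genes (%) whose RefSeq promoter window holds each of 4 motifs on either strand, with 1 bar per gene group. The letters TTTGAA, the core of the cell cycle homology region, are in the windows of 9 of the 10 mitotic kinesins and 1 of the 10 transport kinesins. They are in 20.2% of all genes with a window.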

How the data were processed

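Bulk RNA-seq libraries of OKS + DsRed and OKS + FoxO6 MEFs, 1 per arm and day, were grouped by their labels. The labels name a VAHTS mRNA-seq kit and the methods a TruSeq kit. The authors aligned reads to the GENCODE M13 transcriptome (mm10) with RSEM and Bowtie2, whose versions are not given in the sources used here. The deposited expected counts were made by the authors with RSEM and are not normalized, and the deposited TPM values come from the same alignments and depend on the length RSEM estimated in each library. Members and gene lists were chosen with earlier results of these data known. Every member was named, spindle and transport partners if past the threshold or direct partners.

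Expected counts were rounded and fitted with edgeR 4.0.16 in R 4.3.3 (TMM, filterByExpr by arm, quasi-likelihood, day as a factor plus arm, with an added term for arm by numeric day for the slope, Benjamini-Hochberg adjustment over 10977 genes, threshold 0.05). The scripts were tested on simulated data. Differences on single days used log2(TPM + 1), with a pseudocount of 1, which understates changes of low genes, a TPM of at least 1 in either library and a 2-fold threshold, without a test. Python 3.11.15 with pandas 2.3.3 and scipy 1.17.1 was used. Depth was 1208379 to 2225750 counts per library. Intervals are binomial on 1 library per arm and day and cover counting error only. Coordinates are from GENCODE M21 (GRCm38), of the same genome build. The alternatives were DESeq2 1.42.0, its size factors in edgeR, no filter, a length offset, no day term, each day left out, a pseudocount of 0.1, CPM, TPM or mean TPM of at least 5, all members with a read, mean log2 values, sums without the most abundant member, and, chosen after seeing the data, the filter by the design matrix. Protein sequences were not used here.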

Additional observations from a re-analysis of the deposited data

How the results depend on the processing

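The fitted directions of the 28 tested kinesins and the calls were recomputed under each alternative. The number of genes called for the shift was 1544, and it was 2249 with no filter, 168 without a day term and 663 to 1569 with 1 day left out, with fewer libraries in the latter fits. Of the 11 mitotic kinesins, 7 were called lower, against 4 with DESeq2, 2 with the length offset, 0 without a day term and 1 to 4 with 1 day left out. Of the 11 tested transport kinesins, 1 was called higher (1 to 2 with a day left out, Kif1b being added without day 7) and 0 lower (0 to 1, Kif5c being added without day 0). Of the other kinesins, 3 were called, against 0 with DESeq2, 0 without a day term and 0 to 2 with 1 day left out. For day 7 against day 0, mitotic calls were 0 (0 to 1 with a day left out) and other kinesins 1, against 0 with DESeq2 and 0 with the length offset. The slope had 217 calls, against 628 with no filter, 126 with DESeq2, 110 with the length offset and 80 to 233 with 1 day left out, and 1 transport kinesin, Kif1b, was added with no filter (adjusted p = 0.0442). Single-day differences past 2-fold lower among transport kinesins, summed over the days, were 3, against 6 with a pseudocount of 0.1 and 5 with CPM. The cause of these changes was not tested. The other 171 values recomputed for comparisons and classes stayed within 1.5 times the main count or within the spread between days, and no called gene changed sign. With mean log2 values in place of sums, the log2 ratio of transport to mitotic kinesins at day 1, FoxO6 minus DsRed, was -0.03 against 0.08. The day term pairs the 2 libraries of each day, so the fit without it is the unpaired one. Low counts kept Kif5a, Kif17, Kif6, Kif9, Kif19a, Kif26a and Kif27 out of the reported fit, and with no filter they were fitted from few reads.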

Other observations

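The kinesin symbols outside the rule add the minus-end motors. Kifc3, a motor of cell junctions and the Golgi apparatus, was as abundant as the main transport kinesins, with a mean TPM of 107. Its TPM was 62.3, 107, 156, 140 and 106 at days 0, 1, 3, 5 and 7 with DsRed and 56.4, 90.2, 106, 141 and 101 with FoxO6, low at day 0 in both arms. Kifc2, a neuronal motor, had 2 to 19 reads per library. Kifc5b, which is nearly identical in sequence to Kifc1, had fractional expected counts of 19.1 to 51.7, so the split of reads between Kifc1 and Kifc5b is uncertain. The kinesin pseudogenes Kif4-ps and Kif22-ps had 0 reads in all libraries.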
